A study of Rattus norvegicus with 16 samples.

Results

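The genes described here encode the oxidative phosphorylation machinery of the mitochondrial inner membrane, and they were compared by the genome that encodes them. Members were the records of the raw count table whose gene name begins with Ndufa, Ndufb, Ndufc, Ndufs, Ndufv, Sdha to Sdhd, Uqcr, Cox4 to Cox8 or Atp5. Added to these were the chromosome MT records whose name begins with Mt-nd, Mt-co, Mt-cyb or Mt-atp. This name rule found 115 of 32623 gene records, 102 of them nuclear and 13 on chromosome MT (MT-encoded). Of the nuclear members, 87 are subunits (38 of complex I, 4 of complex II, 9 of complex III, 20 of complex IV and 16 of complex V). The other 15 are 12 assembly factors (Ndufaf1 to Ndufaf8 and Sdhaf1 to Sdhaf4), the ATP synthase inhibitor Atp5if1, the supercomplex factor Cox7a2l and the pseudogene record Cox6c-ps1.

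Female Big Blue rats, which carry a transgenic vector with cII and lacI mutation reporter genes, arrived at 6 weeks of age and had 1 week of acclimation. N-nitrosodiethylamine (NDEA), a nitrosamine that liver enzymes activate to a DNA-alkylating agent, was given by gavage at 10 mg/kg/day for 28 days, and controls received 0 mg/kg/day. Liver and bone marrow were taken 3 days after the last dose. Lexogen QuantSeq libraries, which read the 3′ ends of polyadenylated RNA, were made from 4 samples in each of 4 groups: liver NDEA, liver control, marrow NDEA and marrow control. All 16 libraries carry the same transgene. Nothing in the labels says which replicates came from separate rats, so p-values measure the spread between these samples. Whole tissue was sequenced, and fewer cells of a type and less RNA per cell cannot be told apart.

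Complexes I to IV pass electrons from NADH and succinate to oxygen, and complexes I, III and IV pump protons across the inner membrane. Complex V, the ATP synthase, uses the proton gradient to make ATP. Complex II is wholly nuclear-encoded, while complexes I, III, IV and V combine nuclear subunits, imported from the cytosol, with a small core of subunits translated inside the mitochondrion. The MT mRNAs are cut from long polycistronic transcripts that cover each strand of the circular genome, whereas each nuclear subunit has its own promoter. Liver is rich in mitochondria, and maturing red cells in marrow need them for haem synthesis before losing them.

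Of the 102 nuclear members, 83 were matched to a promoter in RefSeq (build GRCr8), a window of 250 bases before to 50 bases after the annotated start. The letters of factors known for their place in respiratory gene promoters were searched on both strands: for NRF1 the letters GCGC, then any base, then TGCGC; for the GABP/ETS family CCGGAAG; and for YY1 AAGATGGC. The NRF1 letters were in 17 of the 83 member promoters, or 20.5%, against 4.25% of all 33469 promoters. The GABP/ETS letters were in 25 member promoters, or 30.1%, against 8.75% of all. The YY1 letters were in 17, or 20.5%, against 3.17% of all. Member promoters had a median GC content of 56%, against 51.7% over all promoters, and a match is a description of letters, not a site.

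Promoters are printed for the nuclear members that passed the liver test below and were matched (Cox6c was not), since the results in liver turn on them. The windows are chr5:150026628-150026927, minus strand, for Atp5if1; chr7:115750268-115750567, minus strand, for Ndufa6; and chr14:1464610-1464909, plus strand, for Atp5me. Capitals mark the letters of these motifs, read 5′ to 3′ on the gene's strand.
Atp5if1: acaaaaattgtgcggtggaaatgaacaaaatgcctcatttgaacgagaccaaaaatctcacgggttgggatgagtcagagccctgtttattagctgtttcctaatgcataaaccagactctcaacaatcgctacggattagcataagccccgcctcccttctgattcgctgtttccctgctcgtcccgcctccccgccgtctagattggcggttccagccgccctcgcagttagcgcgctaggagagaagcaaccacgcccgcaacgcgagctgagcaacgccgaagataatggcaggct
Ndufa6: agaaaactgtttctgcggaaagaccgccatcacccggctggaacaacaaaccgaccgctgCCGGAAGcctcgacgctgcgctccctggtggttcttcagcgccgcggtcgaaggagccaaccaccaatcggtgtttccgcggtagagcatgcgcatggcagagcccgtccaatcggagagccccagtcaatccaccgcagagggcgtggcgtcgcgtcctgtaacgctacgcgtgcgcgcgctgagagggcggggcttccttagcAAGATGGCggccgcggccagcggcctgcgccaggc
Atp5me: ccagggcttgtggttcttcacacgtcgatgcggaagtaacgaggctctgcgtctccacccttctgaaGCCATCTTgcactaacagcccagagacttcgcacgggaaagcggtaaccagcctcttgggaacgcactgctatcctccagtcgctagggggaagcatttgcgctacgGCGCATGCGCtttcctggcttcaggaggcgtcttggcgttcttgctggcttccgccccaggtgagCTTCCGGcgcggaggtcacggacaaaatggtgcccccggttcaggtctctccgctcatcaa
The Atp5me window holds the NRF1 letters, which overlap their own reverse complement at the same place, and 1 match each to GABP/ETS and YY1. The Ndufa6 window holds 1 GABP/ETS match and 1 YY1 match, the second just after the start. None of these letters is in the Atp5if1 window.

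Library totals ran from 5000844 to 6863592 counts in liver and from 2162182 to 5705705 in marrow. Levels of single genes below are CPM, counts divided by library size, on one TMM scale for all 16 libraries. TMM, the trimmed mean of M values, corrects library totals for composition. Summed levels of marker lists are CPM of the library totals, without TMM. The hepatocyte gene Alb had between 69750 and 103900 CPM in liver and at most 0.456 CPM in marrow. The myeloid gene Mpo had 361 to 587 CPM in marrow and 0 in every liver library. In marrow, NDEA libraries detected 9101 to 11037 genes and control libraries 11054 to 11699. Marrow control 3 had a higher MT share than the other 3 controls, and NDEA 3 and 4 a higher one than the other NDEA libraries, so marrow results are given with and without them. Of the 102 nuclear members, 8 had 0 counts in all libraries, namely Atp5pb, Ndufa1, Cox7a1, Cox7b2, Cox8c, Ndufa4l2, Sdhaf1 and the chromosome 6 copy of Ndufa10l1. Cox6b1, Ndufa10l1, Ndufv3 and Uqcrb each have 2 records on different chromosomes, whose reads the counting may have split.

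The MT-encoded members took about as large a share of liver counts after NDEA as in control, and the nuclear members a slightly smaller one on average. MT-encoded members held 10.1, 10.4, 9.37 and 9.29% of counts in liver NDEA 1 to 4, against 10.3, 9.67, 8.83 and 9.30% in liver control 1 to 4. The groups overlapped. Nuclear members held 1.81, 1.80, 1.80 and 1.68% in liver NDEA, against 1.94, 1.78, 1.85 and 1.87% in liver control; control 2 lay among the NDEA libraries. The log2 ratio of MT to nuclear sums averaged 2.46 ± 0.06 in liver NDEA and 2.36 ± 0.09 in liver control (SD, n = 4 each). A 3′ tag count is not a count per transcript length, so this ratio was compared between libraries and not read as a ratio of molecules.

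Marrow libraries differed far more among themselves. MT-encoded members held 9.85, 7.41, 13.3 and 13.9% of counts in marrow NDEA 1 to 4, against 5.72, 7.68, 11.7 and 6.48% in marrow control 1 to 4. Nuclear members held 1.17, 1.35, 1.12 and 1.07% in marrow NDEA, against 1.63, 1.33, 1.10 and 1.43% in marrow control. The log2 ratio was 3.07, 2.46, 3.56 and 3.70 in marrow NDEA, against 1.81, 2.53, 3.41 and 2.18 in marrow control. NDEA 1, 3 and 4 and control 3 were the 4 libraries with a high ratio, and NDEA 2 lay among the other controls. The means were 3.20 ± 0.56 in marrow NDEA and 2.48 ± 0.69 in marrow control (SD, n = 4 each), and the groups overlapped.

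**Figure D1:**
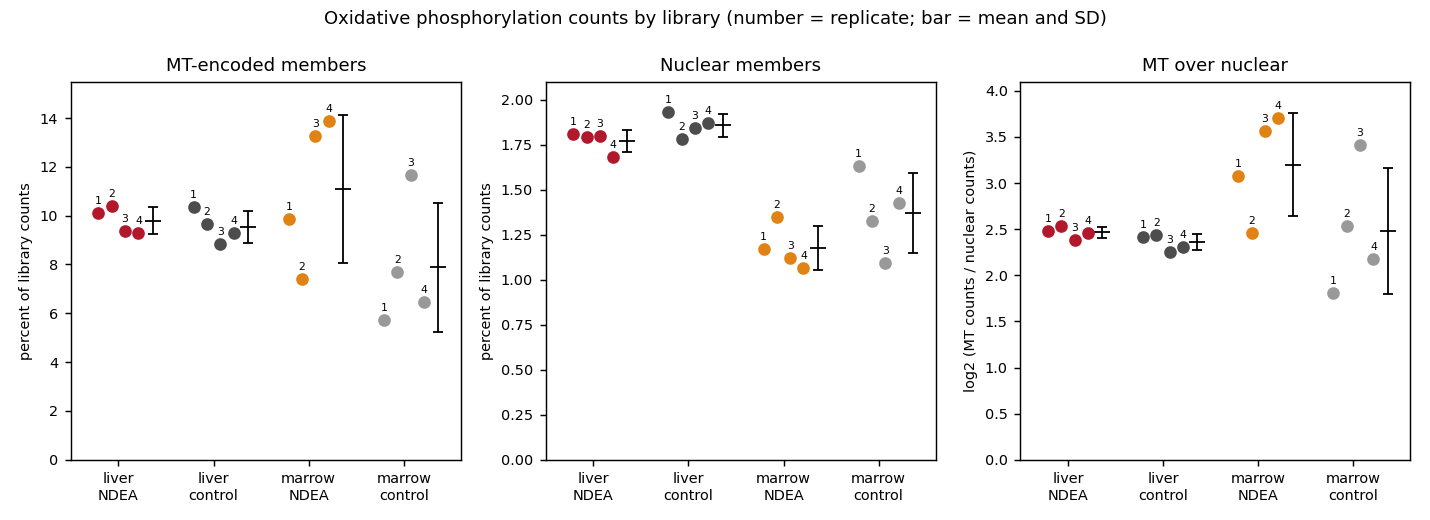
Percent of each library's counts in the MT-encoded members (left) and in the nuclear members (middle), and the log2 ratio of their counts (right), with 1 point per library numbered by replicate and a bar for the mean and SD. Liver libraries sit close together, while marrow control 3, with a log2 ratio of 3.41, lies with marrow NDEA 1, 3 and 4.

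Within complexes the liver ratio moved in opposite directions. For complex I, the log2 ratio of MT to nuclear subunit counts was 2.53, 2.59, 2.43 and 2.58 in liver NDEA, against 2.24, 2.40, 2.16 and 2.21 in liver control. Every NDEA library was above every control library, the smallest gap being that between NDEA 3 and control 2. For complex III, the ratio was 2.14, 1.97, 1.95 and 1.92 in liver NDEA, against 2.67, 2.25, 2.19 and 2.34 in liver control, and here every NDEA library was below every control library. Complex IV averaged 2.95 ± 0.15 in liver NDEA and 2.73 ± 0.12 in liver control, and complex V 2.39 ± 0.03 and 2.32 ± 0.07 in the same order (SD, n = 4 each). These 2 complexes overlapped between groups. No test was made of these sums.

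**Figure D2:**
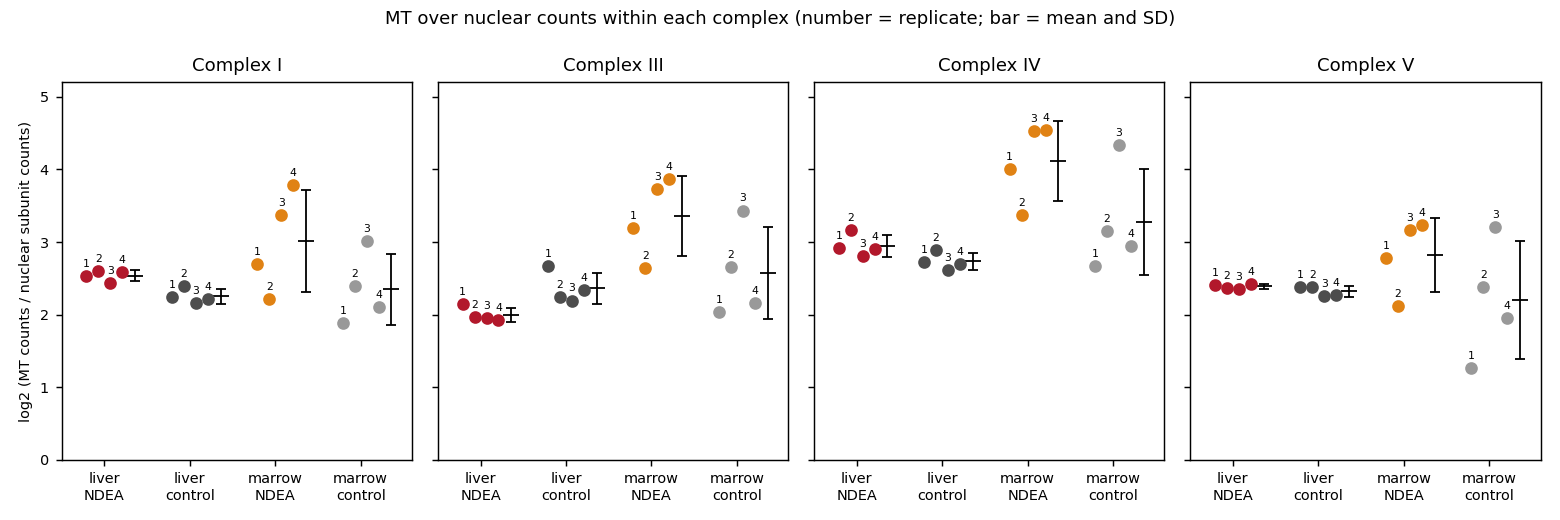
Log2 ratio of MT to nuclear subunit counts in complexes I, III, IV and V, 1 point per library numbered by replicate, with a bar for the mean and SD. In liver, NDEA libraries lie above control for complex I and below control for complex III; in marrow, control 3 lies among the NDEA libraries in each complex.

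In liver, few single members passed the test between NDEA and control, and most nuclear subunits had slightly negative estimates. Tests used limma voom with Benjamini-Hochberg adjustment over all 9668 genes that passed a filter on low counts, and an adjusted p under 0.05 was the threshold for a call. Of the members, 85 nuclear and 12 MT-encoded records were tested, and 4 nuclear and 2 MT-encoded ones were called, against 6.61% of all genes tested (2.87% higher and 3.74% lower). The inhibitor Atp5if1 and the complex I subunit Mt-nd6 rose. Cox6c, Mt-cyb, Ndufa6 and Atp5me fell. The members' share of calls was thus close to that of all genes.

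Atp5if1 encodes the small matrix protein that blocks ATP hydrolysis by complex V, and its record lies on chromosome 5 at position 150719569 of the table, whose build is not given in the sources used here. It had 83.4, 131, 114 and 128 CPM in liver NDEA, against 40.0, 86.7, 70.6 and 52.2 CPM in liver control. Only NDEA 1 fell below the highest control library. The log2 fold change was 0.92 ± 0.21 (SE; limma voom adjusted p = 0.00748). Its level in marrow, given further on, moved the other way.

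Mt-nd6 is a membrane subunit of complex I and the one mRNA encoded on the opposite strand to the other 12. It had 272, 281, 246 and 275 CPM in liver NDEA, against 81.6, 264, 176 and 136 CPM in liver control, where the libraries were widely spread. Control 2 lay within the NDEA range. The log2 fold change was 0.85 ± 0.21 (SE; limma voom adjusted p = 0.0128), and without control 1 it was 0.53 with an adjusted p of 0.0573. The sources used here do not say whether counting used strand, and reads from the opposite transcript cannot be told apart from its own.

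Mt-cyb encodes cytochrome b, the only MT-encoded subunit of complex III. It had 9442, 8761, 8685 and 8108 CPM in liver NDEA, against 14640, 10840, 10630 and 11480 CPM in liver control. No NDEA library reached the lowest control. The log2 fold change was -0.43 ± 0.09 (SE; limma voom adjusted p = 0.00173).

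Cox6c, a small membrane subunit of complex IV (chromosome 7, position 74723179 of the table), had 511, 524, 487 and 494 CPM in liver NDEA, against 920, 592, 719 and 617 CPM in liver control. All 4 NDEA libraries were lower, and control 1 was the highest of the controls. Its log2 fold change was -0.48 ± 0.12 (SE; limma voom adjusted p = 0.0148).

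Ndufa6, an accessory subunit of the matrix arm of complex I (chromosome 7, position 123583062), had 248, 251, 244 and 213 CPM in liver NDEA, against 328, 301, 342 and 312 CPM in liver control. Its log2 fold change was -0.42 ± 0.11 (SE; limma voom adjusted p = 0.0242), with no overlap between groups. Atp5me, subunit e of the membrane part of complex V (chromosome 14, position 2325308), had 500.5, 475, 488 and 438 CPM in liver NDEA, against 696, 575, 603 and 678 CPM in liver control. Its log2 fold change was -0.42 ± 0.10 (SE; limma voom adjusted p = 0.0130), again without overlap. Without NDEA 4 neither was called, with adjusted p of 0.0992 for Ndufa6 and 0.0542 for Atp5me, and without control 3 Ndufa6 had 0.0906. With library totals in place of TMM, Cox6c, Ndufa6 and Atp5me had limma voom adjusted p of 0.0631, 0.104 and 0.0668. In 1 fit of all 16 libraries, which share 1 estimate of the spread, Mt-nd6 alone of the 6 stayed called, beside 4.54% of genes tested. The other 5 had limma voom adjusted p from 0.0985 to 0.481 with folds of the same sign.

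**Figure D3:**
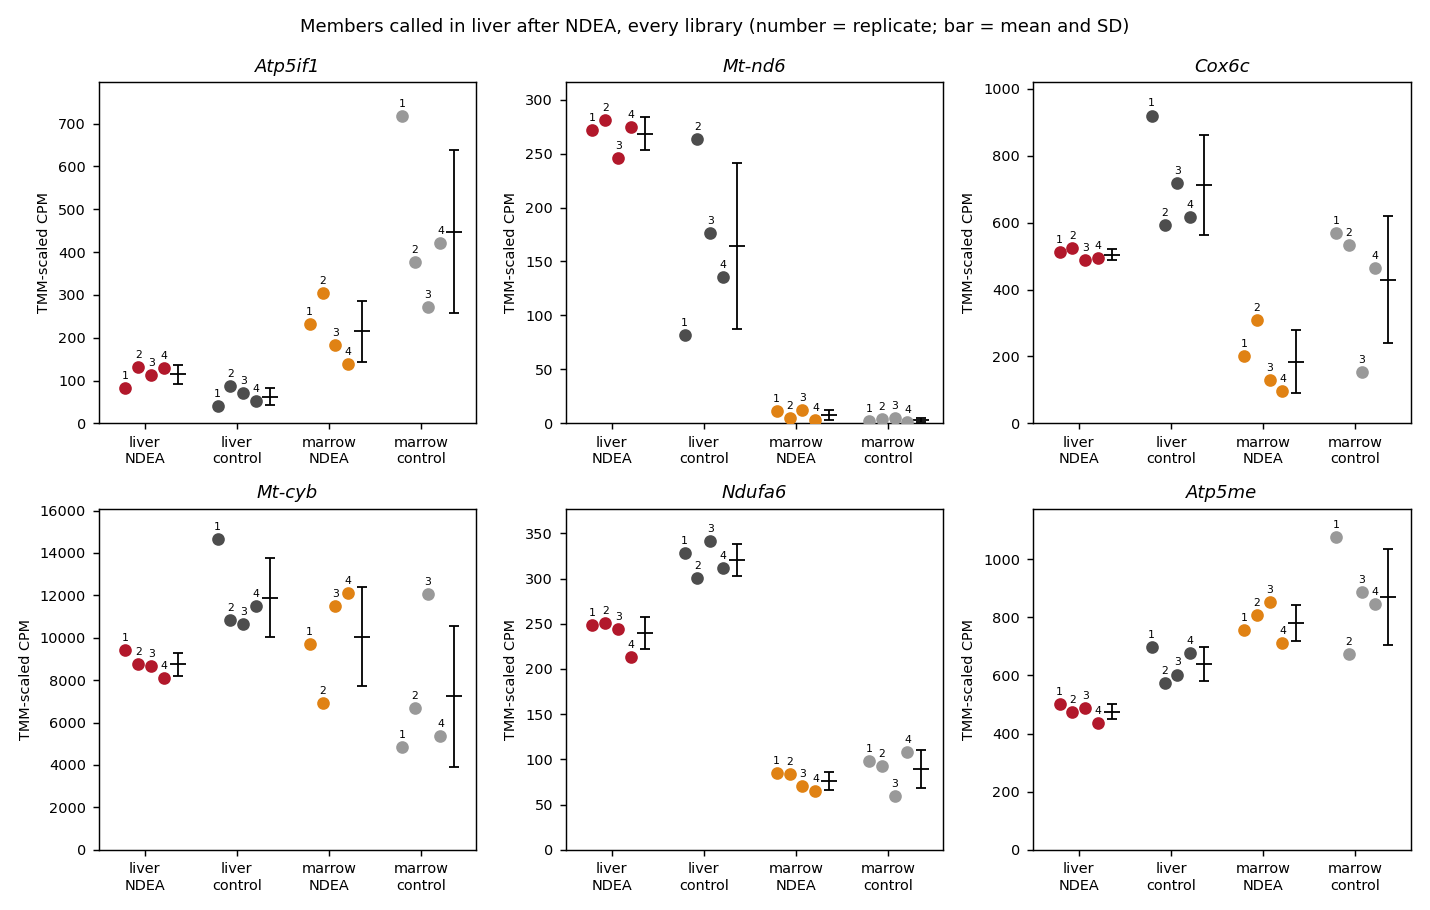
TMM-scaled CPM of the 6 members called in liver, 1 point per library numbered by replicate, in liver NDEA, liver control, marrow NDEA and marrow control, with a bar for the mean and SD. Cox6c, Mt-cyb, Ndufa6 and Atp5me do not overlap between the liver groups; Atp5if1 averages higher in liver NDEA than in liver control, and lower in marrow NDEA than in marrow control.

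The other MT-encoded members were not called in liver. Mt-nd1, a core subunit near the quinone site, had 14440, 13710, 12960 and 12100 CPM in liver NDEA, against 11820, 12470, 10770 and 11280 CPM in liver control, a log2 difference of 0.20 ± 0.07 (SE; limma voom adjusted p = 0.0901). Mt-atp6, the proton channel subunit of complex V, averaged 31920 ± 2043 CPM in liver NDEA and 36230 ± 3085 CPM in liver control (SD, n = 4 each; log2 difference -0.18, limma voom adjusted p = 0.0955). Mt-nd2 and Mt-co2 had log2 estimates of 0.11 and 0.07, Mt-atp8 0.20, and Mt-nd5, Mt-nd3, Mt-nd4l, Mt-co1 and Mt-co3 between -0.19 and -0.09. Mt-co1 ran from 5408 to 11710 CPM in liver NDEA and from 7202 to 8914 CPM in liver control. The median over the 12 tested MT-encoded members was -0.11, against 0.012 over all genes tested; it was -0.19 without NDEA 1 and -0.050 without NDEA 3, and lay between these without any other single library.

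Each MT mRNA's share of the counts of the 13 MT-encoded members was compared as well, without reference to other genes. The shares of a library add to a fixed total, so a fall in some raises the others. Mt-nd1 took 12.7 to 13.2% in liver NDEA and 9.91 to 11.4% in liver control. Mt-co2, whose log2 estimate of 0.07 was not called, took 16.2 to 17.1% in liver NDEA and 14.2 to 15.9% in liver control. Mt-cyb took 8.14 to 8.86% in liver NDEA and 9.89 to 12.3% in liver control. Mt-atp6 took 29.2 to 32.6% in liver NDEA and 32.8 to 34.1% in liver control. Mt-nd6 took 0.246 to 0.288% in liver NDEA and 0.0684 to 0.240% in liver control. These 5 of the 13 shares did not overlap between groups, the other 8 did, and no test was made of them. Mt-nd4 was nearly absent, with 0 counts in all liver NDEA libraries and 3 in liver control, while Mt-nd4l, whose transcript it shares, had 8581 and 8173 counts in the same order; how reads over both genes were assigned is not given.

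Most nuclear subunits had lower estimates in liver NDEA, least so in complex III. Of 73 nuclear subunits tested, 61 had a negative and 12 a positive estimate, the median log2 fold change being -0.20, against 0.012 over all genes tested. In 13 of the 73 every NDEA library was below every control library and in 0 every one was above, against a background of 6.03% of genes tested lower and 6.53% higher. With library totals in place of TMM, the median of all genes moved to 0.12 and that of nuclear subunits to -0.08, so the gap between them held. The spread within the 73 ran from -0.56 to 0.58.

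In complex I, 27 of 34 tested nuclear subunits had negative estimates (median -0.15). The lowest was Ndufs7, an iron-sulfur core subunit next to the quinone site, with 95.4, 65.8, 79.9 and 78.5 CPM in liver NDEA, against 117, 128, 97.1 and 120.2 CPM in liver control. The groups did not overlap, but its log2 difference of -0.53 ± 0.16 missed the threshold (SE; limma voom adjusted p = 0.0510). The highest was Ndufs1, the largest iron-sulfur subunit, at 0.58 ± 0.31 (SE; limma voom adjusted p = 0.324). Among assembly factors of this complex, Ndufaf6 had -1.11 ± 0.77 and Ndufaf5 0.90 ± 0.55 (SE), both from low counts and neither called.

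Complex II has no MT-encoded subunit. Sdhd, a membrane anchor, had 179, 149.9, 159 and 131 CPM in liver NDEA, against 184, 193, 182 and 185 CPM in liver control, and did not overlap (log2 difference -0.27, limma voom adjusted p = 0.264). The iron-sulfur subunit Sdhb was the lowest of the 4 at -0.31, the flavoprotein Sdha had -0.28, and the other anchor, Sdhc, had 0.10. None of the 4 was called. Among its assembly factors, Sdhaf4 had -0.77 ± 0.78 and Sdhaf2 0.36 ± 0.24 (SE).

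Complex III held close to 0, its nuclear subunits taking 0.209% of counts on average in liver NDEA and 0.202% in liver control, with 6 of 8 tested nuclear subunits negative and a median of -0.06. Uqcr10, a small subunit beside cytochrome c1, was lowest at -0.25 and Uqcrb (the chromosome 7 record), which binds near the quinone site, highest at 0.07. The fall of Mt-cyb, at -0.43, was thus below the estimate of every tested nuclear subunit of its complex. Cyc1, cytochrome c1 itself, which the name rule leaves out, had a log2 difference of 0.08 (limma voom adjusted p = 0.796).

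In complex IV, 11 of 12 tested nuclear subunits had negative estimates (median -0.22). After the called Cox6c came the chromosome 2 record of Cox6b1 at -0.37, and Cox8a at -0.33, whose 214 to 257 CPM in liver NDEA lay wholly below its 271 to 314 CPM in liver control (limma voom adjusted p = 0.1001). Cox4i1, the largest nuclear subunit of this complex, had -0.33 (limma voom adjusted p = 0.169). The chromosome 1 record of Cox6b1 was the only positive one, at 0.08, and Cox7a2l, which joins complexes III and IV into supercomplexes, had 0.13.

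In complex V, 14 of 15 tested nuclear subunits had negative estimates (median -0.23), and 6 of the 15 did not overlap. The lowest was Atp5md, a small membrane subunit, at -0.56 ± 0.21 (SE; limma voom adjusted p = 0.131). Atp5mc3, one of the genes for the proton-carrying ring subunit, had 896, 899, 955 and 858 CPM in liver NDEA, against 1307, 1071, 1075 and 1023 CPM in liver control (log2 difference -0.31, limma voom adjusted p = 0.0587). Atp5f1d, in the central stalk, was the one positive estimate, at 0.04.

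Some cell type markers moved with the liver groups and others did not. No tested erythroid, neutrophil or megakaryocyte marker was called in liver. Of 8 Kupffer cell and macrophage markers, 1 was called higher and 1 lower. Of 9 tested genes of cycling cells, 8 were called higher, and their summed level was 217 to 369 CPM in liver NDEA and 7.28 to 61.1 CPM in liver control. Of 9 hepatocyte markers, 5 were called lower and 2 higher, and their summed level was 97750 to 110500 CPM in liver NDEA and 98820 to 122500 CPM in liver control. No marker of this list was at 0 in all libraries of a liver group. Adipocyte markers summed to 6.41 to 28.3 CPM in liver NDEA and 0.178 to 3.88 CPM in liver control, with 5 of 7 at 0 in each group. Cytosolic ribosomal protein genes held 1.64 to 1.80% of counts in liver NDEA and 1.31 to 1.56% in liver control. Mitochondrial ribosomal protein genes held 0.282 to 0.298% in liver NDEA and 0.265 to 0.278% in liver control, and none of these 3 sums overlapped. All are relative to library totals, and TMM factors were 0.917 to 0.974 in liver NDEA and 0.867 to 0.889 in liver control. On the TMM scale, median log2 fold changes were 0.06 for cytosolic and 0.05 for mitochondrial ribosomal protein genes, against 0.012 over all genes tested. The part of these markers and sums in the members' levels was not tested.

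**Figure D4:**
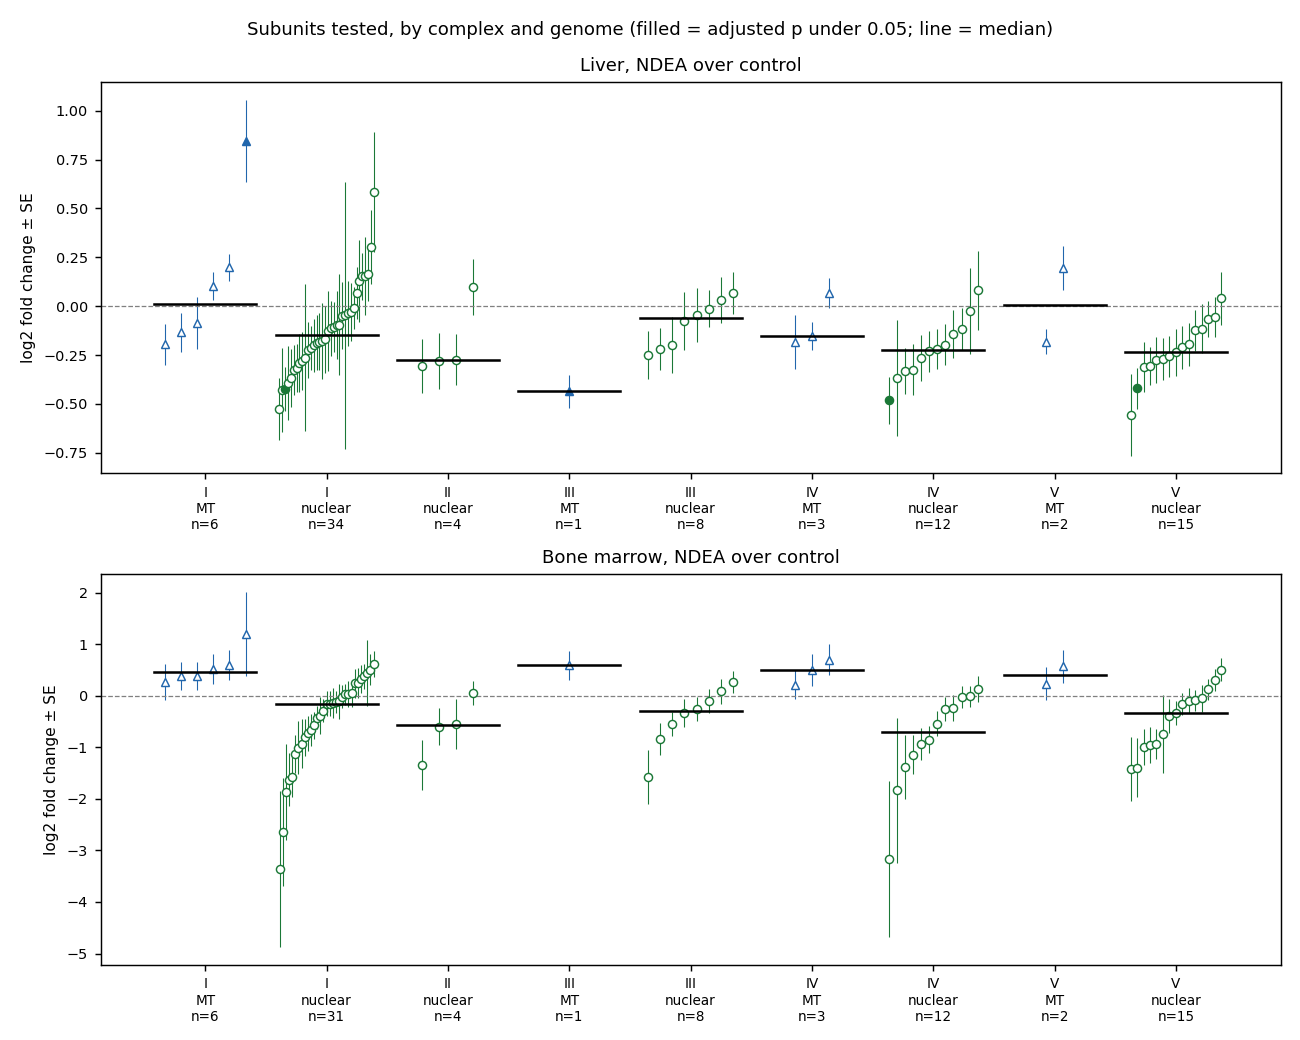
Log2 fold change of NDEA over control with its SE for each tested subunit, by complex and by genome (MT triangles, nuclear circles), in liver (top) and marrow (bottom); filled symbols were called, lines are medians, n is the number tested, and the scales of the panels differ. In marrow each MT-encoded estimate is above 0 and most nuclear ones are below, with no filled symbol.

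In marrow no member was called, and no gene at all: 0 of 9239 genes passed limma voom's adjusted threshold (0% background), while 1336 had an unadjusted p under 0.05. Both the 80 nuclear and the 12 MT-encoded members tested were among the uncalled. All 12 MT-encoded estimates were positive, from 0.22 to 1.20 (median 0.51), and 61 of the 80 nuclear ones were negative (median -0.33), against a median of -0.10 over all genes tested. At an unadjusted p under 0.05 there were 24 nuclear members lower, 2 nuclear higher and 2 MT-encoded higher, against a background of 8.62% lower and 5.84% higher (14.5% in all). Groups did not overlap in 3 nuclear members that were lower and 1 that was higher, against 3.54% and 2% of genes tested. MT-encoded members share one genome and one pool of transcripts, so the 12 estimates are not independent.

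Among MT-encoded members in marrow, Mt-co2, the copper-binding subunit of complex IV, had 20910, 15940, 26030 and 27490 CPM in marrow NDEA, against 8156, 14550, 26260 and 12610 CPM in marrow control. Control 3 was as high as the highest NDEA libraries, and the log2 difference was 0.70 ± 0.30 (SE; limma voom adjusted p = 0.301). Mt-cyb had 9695, 6917, 11490 and 12120 CPM in marrow NDEA, against 4838, 6676, 12070 and 5373 CPM in marrow control, a log2 difference of 0.59 ± 0.28 (SE; limma voom adjusted p = 0.342). Mt-nd1 had 0.60 and Mt-atp6 0.58, with limma voom adjusted p of 0.345 and 0.401. Mt-nd6 had the largest estimate, 1.20 ± 0.82 (SE), on only 168 counts in marrow NDEA and 62 in marrow control. Estimates for Mt-co3 (0.22), Mt-atp8 (0.23), Mt-nd4l (0.27), Mt-nd3 (0.38), Mt-nd5 (0.39), Mt-co1 (0.50) and Mt-nd2 (0.53) were lower than these.

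One library set the composition of the MT counts in marrow apart. Mt-co3 took 7.10 ± 0.25% of the MT-encoded members' counts in marrow NDEA and 9.77 ± 5.51% in marrow control (SD, n = 4 each), where it reached 18.03% in 1 library. In CPM, Mt-co3 had 6754, 4676, 8240 and 9115 in marrow NDEA, against 8631, 4975, 8224 and 4225 in marrow control. Control 1, the shallowest library, had the highest control level of Mt-co3 and the lowest of Mt-co2, Mt-cyb and Mt-atp6.

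The nuclear subunits farthest from 0 in marrow were those with few reads. Ndufc1, a complex I accessory subunit, had 0, 3.43, 2.43 and 0 CPM in marrow NDEA, against 13.9, 6.73, 2.28 and 7.95 CPM in marrow control, a log2 estimate of -3.36 ± 1.51 (SE; limma voom adjusted p = 0.319). The chromosome 2 record of Cox6b1 had -3.17 ± 1.51 and Ndufa7 -2.64 ± 1.05 (SE), both uncalled. At the other end, Ndufs4, which completes the NADH-binding arm of complex I, had 148, 143, 154 and 213 CPM in marrow NDEA, against 80.1, 100, 140.4 and 121 CPM in marrow control, without overlap (log2 difference 0.62, limma voom adjusted p = 0.280).

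Members with more reads had smaller errors. Ndufb10, an accessory subunit of the membrane arm of complex I, had 12.5, 19.2, 7.11 and 14.7 CPM in marrow NDEA, against 73.5, 42.5, 26.2 and 37.1 CPM in marrow control. All NDEA libraries were lower (log2 difference -1.58 ± 0.39, SE; limma voom adjusted p = 0.247). Cox5b, a zinc-binding subunit of complex IV, had 188, 203, 136 and 99.2 CPM in marrow NDEA, against 345, 325, 184 and 305 CPM in marrow control. Control 3 was again nearest to the NDEA libraries. Its log2 difference was -0.85 ± 0.26 (SE; limma voom adjusted p = 0.247).

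By complex in marrow, medians of tested nuclear subunits were -0.15 for complex I, -0.57 for II, -0.29 for III, -0.69 for IV and -0.33 for V. Complex II ran from Sdhb at -1.34 to Sdhd at 0.05, and complex III from the Rieske iron-sulfur subunit Uqcrfs1 at -1.58 to Uqcr10 at 0.28. The highest estimate of complex IV was Cox5a, at 0.13. In complex V, the catalytic-head subunit Atp5f1a was lowest at -1.42, and the ring gene Atp5mc2 highest at 0.51. Medians of MT-encoded members were 0.46 for complex I and 0.50 for complex IV.

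Some other measures were lower on average in marrow NDEA than in marrow control, namely erythroid, ribosomal protein, skeletal muscle, megakaryocyte, macrophage and cycling cell genes. Summed adipocyte markers were higher, averaging 1004 CPM in marrow NDEA and 716 CPM in marrow control. Neutrophil markers averaged 26390 and 25960 CPM, and B cell markers 369 and 348 CPM, in the same order. The summed erythroid markers were 176600 to 227300 CPM in marrow NDEA and 221100 to 266000 CPM in marrow control, and all 10 were detected in both groups; 7 of the 10 had negative estimates. The 10 erythroid estimates had a median of -0.38 and ran from -1.36 to 0.61. The erythroid genes Alas2 and Hbb had log2 differences of -0.79 and -1.36, neither called by limma voom (adjusted p = 0.247 for each). Hbb, the lowest of the list, had 1254 CPM in marrow control 3, within its 770 to 1432 CPM in marrow NDEA. Cytosolic ribosomal protein genes, not members, had a median of -0.83 over 71 tested, 58 of them negative. The summed skeletal muscle markers were 67.5 to 90.8 CPM in marrow NDEA and 180.6 to 526 CPM in marrow control, highest in control 3; 9 of 12 were tested, all with negative estimates, 4 without overlap, and 1 of the 12 was at 0 in all NDEA libraries. Their part in the members' values was not tested.

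Leaving out marrow control 3 changed the calls. That library was singled out by its high MT share, a value of the members themselves. Calls made without it are therefore not separate evidence of an NDEA effect. With all marrow libraries kept, limma voom called 0 of 9239 genes. Without control 3, 13 nuclear members were called lower and Mt-co2 higher, 14 members among 318 called genes (3.29% of 9675 tested). Of these 13, 5 were complex V subunits: Atp5pd (-1.46), Atp5pf (-1.98), Atp5po (-1.18), Atp5mc3 (-1.25) and Atp5f1a (-1.93). The others were Atp5if1 (-1.19), Uqcrfs1 (-2.09), Cox6c (-1.60), Cox5b (-1.07), Cox8a (-1.13), Ndufb4 (-1.95), Ndufb9 (-1.54) and Ndufb10 (-1.79), while Mt-co2 had 0.98; limma voom adjusted p ran from 0.00774 to 0.0460. With control 3, NDEA 3 and NDEA 4 all left out, a choice made after the libraries were seen, 5 nuclear members fell (Atp5pd, Ndufb9, Cox6c, Ndufb10 and Uqcrfs1) among 83 called genes, or 0.823% of those tested, and no MT-encoded member was called. With NDEA 3 and 4 alone left out, none was called, and the MT-encoded median was 0.12 and the nuclear subunit median -0.19. With the summed muscle marker share as a covariate, 17 nuclear members were called lower and 7 MT-encoded ones higher, beside 6.15% of genes tested. This share was 67.5 to 90.8 CPM in marrow NDEA and 180.6 to 526 CPM in marrow control. Without overlap between the groups, the covariate and the treatment cannot be told apart in this fit. In 1 fit of all 16 libraries Ndufb10 was the only member called, beside 0.613% of genes tested.

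Liver and marrow effects were compared in 1 fit of all 16 libraries, as the NDEA effect in liver minus that in marrow. Of 11261 genes tested, 257 were called (2.28%, with 2.07% positive and 0.213% negative), and among the members Atp5if1 alone was called, with a difference of 1.90 ± 0.41 on the log2 scale (SE; limma voom adjusted p = 0.0142). In marrow Atp5if1 had 231, 305, 183 and 139.5 CPM after NDEA, against 718, 378, 272 and 422 CPM in control. Only NDEA 2 was above the lowest control. The marrow log2 difference was -0.97 ± 0.29 (SE; limma voom adjusted p = 0.247). Without marrow NDEA 3 and 4 the tissue difference was 1.52 with an adjusted p of 0.0733, and without liver control 4 it was 1.77 with 0.0504. The summed erythroid markers given above averaged 201500 CPM in marrow NDEA and 253600 CPM in marrow control, with overlap. Their part in the tissue difference of Atp5if1 was not tested.

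No other member was called in this contrast. Mt-cyb, lower in liver NDEA and not in marrow NDEA, had a difference of -0.97 ± 0.29 (SE; limma voom adjusted p = 0.0788). It passed without marrow control 3 (-1.28, limma voom adjusted p = 0.00276) and without marrow NDEA 2 (-1.14, limma voom adjusted p = 0.0185). The median difference was -0.41 over 12 MT-encoded members and 0.27 over 76 nuclear subunits, against 0.32 over all genes tested. Differences for Cox6c, Ndufa6, Atp5me and Mt-nd6 were not called. Without marrow control 3, 15 members passed, 11 of them with a positive difference, among 509 called genes (4.35% of 11698 tested). Because that library was singled out by the members' own MT share, these calls are not separate evidence either.

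Between the untreated tissues, most members had higher levels in liver libraries than in marrow libraries. Of 10071 genes tested in liver control against marrow control, 6661 were called (66.1%), 32.8% higher and 33.4% lower in liver. Of 84 nuclear members tested, 61 were called higher in liver and 5 lower, with a median log2 fold change of 1.16, against -0.024 over all genes tested; for nuclear subunits alone the median was 1.33. Of 12 MT-encoded members, 8 were called higher and 0 lower (median 0.82). The MT-encoded median was lower than that of nuclear subunits by an amount that depended on marrow control 3: without it, the medians were 1.10 and 1.18. The mean log2 ratio of MT to nuclear sums was 2.36 in liver control and 2.48 in marrow control, and without marrow control 3 the marrow value was 2.17, which turned the direction. With library totals in place of TMM, the medians were 1.01 for nuclear subunits, 0.48 for MT-encoded members and -0.34 for all genes.

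Nuclear subunits were higher in liver in each complex, with medians of 1.43 for complex I, 1.70 for II, 1.39 for III, 1.11 for IV and 1.39 for V. All 4 subunits of complex II were called higher, as were 28 of 33 tested in complex I, 6 of 8 in III, 9 of 12 in IV and 12 of 15 in V. The MT-encoded medians were 1.09 for complex I, 0.83 for Mt-cyb and 0.43 for complex IV, where none of the 3 was called. Mt-nd4l (3.17), Mt-atp8 (3.10), Mt-nd1 (1.17), Mt-nd5 (1.02), Mt-cyb (0.83), Mt-atp6 (0.81) and Mt-nd2 (0.47) were called higher in liver by limma voom. Mt-co1 (0.43), Mt-co2 (0.24), Mt-co3 (0.47) and Mt-nd3 (0.29) were not.

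Mt-nd6 had the largest fold change of any member tested. It had 81.6, 264, 176 and 136 CPM in liver control, against 1.93, 4.43, 5.01 and 1.33 CPM in marrow control, a log2 fold change of 5.73. The groups lay far apart. Mt-nd4l and Mt-atp8, which overlap Mt-nd4 and Mt-atp6 on the same strand, were next among the MT-encoded members. The counts of all 3 records depend on how strand or overlap was handled. Mt-nd4l had 313 to 463 CPM in liver control and 21.7 to 88.6 CPM in marrow control.

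Among nuclear members, the largest positive folds were in records with few marrow reads. Ndufb6, an accessory subunit of complex I, had 33.6, 32.5, 50.3 and 33.6 CPM in liver control, against 1.93, 1.31, 0.228 and 0.993 CPM in marrow control (20 counts in all), a log2 fold change of 5.22. Ndufaf2, an assembly factor, had 4.46, Cox7a2 4.21 and Ndufs5 3.50. Every liver library was above every marrow library in Ndufb6 and Ndufaf2.

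Called lower in liver control were Ndufaf6, Atp5if1, Ndufc2, Cox7a2l and Ndufs4. Ndufaf6, a factor for the early assembly of complex I, had 6.13, 3.64, 5.13 and 6.60 CPM in liver control, against 134, 81.6, 106 and 97.2 CPM in marrow control (log2 fold change -4.21). Atp5if1 had 40.0, 86.7, 70.6 and 52.2 CPM in liver control, against 718, 378, 272 and 422 CPM in marrow control (log2 fold change -2.76). No liver library reached a marrow library in either gene. Ndufc2 had -0.99, Cox7a2l -0.82 and Ndufs4 -0.66. Atp5if1 was also the one member called when NDEA effects were compared between the tissues. That call was lost without liver control 4, and without marrow NDEA 3 and 4. Any link between its level in a tissue and its NDEA effect was not tested.

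**Figure D5:**
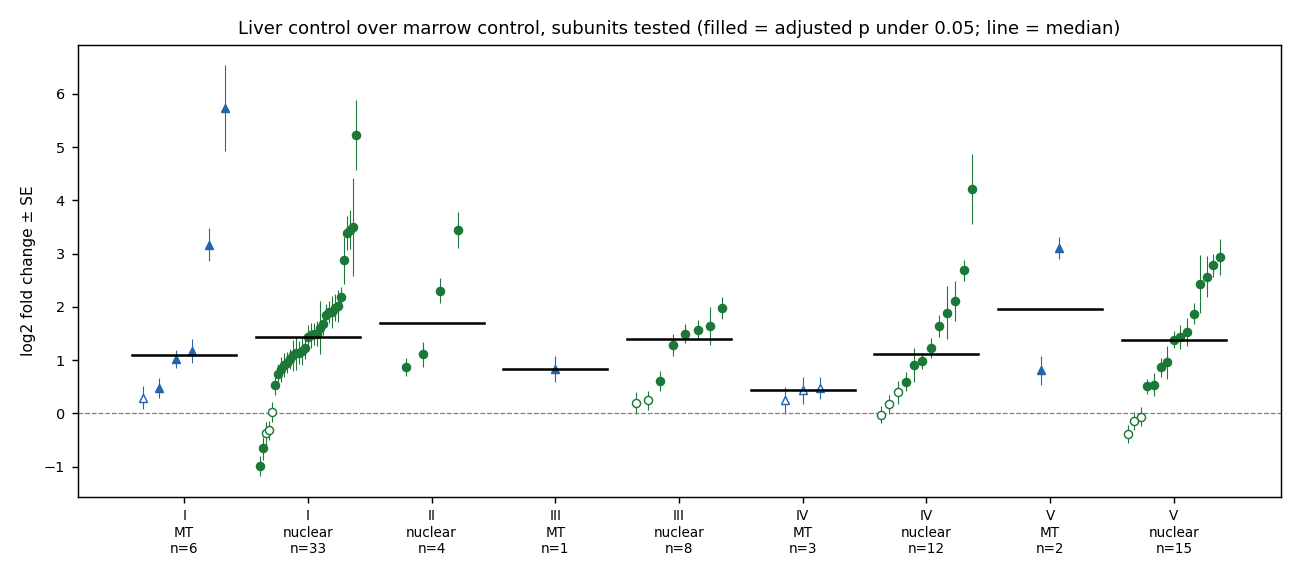
Log2 fold change of liver control over marrow control with its SE for each tested subunit, by complex and by genome (MT triangles, nuclear circles); filled symbols were called and lines are medians. Nuclear medians lie between 1.11 and 1.70 in all complexes, while the MT-encoded members of complex IV have a median of 0.43 with no filled symbol.

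Complex IV has subunits with tissue isoforms, of which the heart and muscle forms are Cox6a2, Cox7a1 and Cox8b. In both tissues the reads lay in the widely expressed forms. Cox6a1 had 533, 487, 559 and 565 CPM in liver control, against 717, 465, 566 and 526 CPM in marrow control, a log2 fold change of -0.024 with overlapping groups. Cox8a (1.64), Cox4i1 (0.59), Cox7a2 (4.21), Ndufa4 (2.69) and the chromosome 1 record of Cox6b1 (2.11) were higher in liver control by limma voom. Cox6a2 and Cox8b had 0 counts in all liver libraries. In marrow they had 27 and 11 counts over the 4 NDEA libraries and 59 and 57 counts over the 4 control libraries, beside the skeletal muscle markers given above.

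Other mitochondrial lists give a setting for the members. In liver NDEA against control, none of 68 tested mitochondrial ribosomal protein genes was called (median 0.05), and of 12 tricarboxylic acid cycle genes only Idh2 was, a mitochondrial NADPH-forming dehydrogenase with a log2 fold change of 0.93 ± 0.19 (SE; limma voom adjusted p = 0.00279). Acad9, a complex I assembly factor outside the name rule, rose by 0.97 ± 0.20 (SE; limma voom adjusted p = 0.00279). Slc25a4, an ADP/ATP carrier, rose by 1.63 and Ucp2, an inner membrane carrier, by 0.82, while the coenzyme Q-binding protein Coq10a fell by 1.14, all on the log2 scale. Tfam, which packages the MT genome and acts in its transcription, had 0.10 in liver and -0.69 in marrow, neither called. Ppargc1a, a coactivator of mitochondrial biogenesis, had 76 counts in liver NDEA and 30 in liver control, spread unevenly over the libraries (log2 difference 0.21 ± 1.72, SE). Cycs, cytochrome c, was listed with 0 counts in every library. In marrow none of these lists had a called gene, and the mitochondrial ribosomal protein median was -0.20 over 65 tested.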

How the data were processed

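The authors deposited a table of raw counts of 3′ reads per gene for 16 libraries; STAR and DESeq2 are named, without versions, in the submitters' processing notes, and the counting tool, genome build, annotation and strandedness were not stated there or in the labels. The deposited table had 12 records broken over 2 lines and 15579 lines held as one quoted cell; these were rejoined, giving 32623 gene records, and the deposited group totals matched in all 16313 records that have them. A plain reading of the damaged table does not give whole counts, though the rejoined records do. Because of that plain reading, limma 3.58.1 (R 4.3.3) was chosen in place of a negative binomial test, which was not run. Genes were kept with at least the CPM of 10 counts in the median library in 4 libraries and 15 counts in all. TMM factors trimmed 0.3 of log ratios and 0.05 of levels. Tests were limma voom, two-sided, with Benjamini-Hochberg adjustment over all genes tested, called at 0.05, within 1 tissue for NDEA effects and over 16 libraries for the difference between tissues. The test was tried on simulated data. No 2 libraries of a group agreed within sampling noise.

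The members, gene lists and tests were chosen with earlier results of these data known. Named members are the 13 MT-encoded ones, those called (at most 5 rises and 5 falls), the extremes of each complex, the isoform pairs, Atp5if1, Cyc1, Cycs and Tfam. Others, such as Ndufb10, Cox5b, Cox8a, Ndufa7, Sdhb, Sdha, Sdhc, the liver values of Sdhd and Cox4i1, and Atp5mc3, were chosen after their values were seen. Alternatives changed the scaling, the filter, the weights, the replicate block and the libraries kept.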

Additional observations from a re-analysis of the deposited data

Results flagged for a closer look

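Among 145 groups of 4 libraries, 7 held a library far from the other 3 by Dixon's gap test, or 4.83%, and chance flags about 1 group in 20.

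Liver NDEA 4 held 1.68% of its counts in nuclear members, against 1.80 to 1.81% in the other liver NDEA libraries. Mt-nd4l had 450.8 CPM in liver NDEA 1 (the others 323 to 343) and 41.6 CPM in marrow NDEA 2 (the others 54.1 to 55.8). Mt-nd5 had 601 CPM in marrow control 3, the control library with a high MT share, against 387 to 412 CPM in the other controls. Ndufs4 had 213 CPM in marrow NDEA 4, against 143 to 154 CPM in the others. Ndufb6 had 50.3 CPM in liver control 3, the others 32.5 to 33.6. Sdhaf4 had 2.49 CPM in liver control 2, the others 5.45 to 5.80.

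The NDEA effect on Atp5if1 differed between the tissues by 1.90 on the log2 scale (limma voom adjusted p = 0.0142), being positive in liver and negative in marrow.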

How the results depend on the processing

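Library totals in place of TMM moved the liver medians to -0.083 for nuclear subunits and 0.0041 for MT-encoded members, with 1 nuclear and 4 MT-encoded members called and Mt-nd4l at 0.030; in the untreated tissues they gave a nuclear median of 1.01, Mt-co2 at -0.10 and Mt-nd3 at -0.044. Without a filter, and with the replicate block, 4 MT-encoded members were called in liver, beside 5.08% and 8.86% of genes tested. In 1 fit of all 16 libraries, 0 nuclear and 1 MT-encoded member were called in liver (4.54% of genes tested). The same fit called 1 nuclear member in marrow (0.613%), where Sdhd stood at -0.0041. Limma trend called 5 MT-encoded members between the untreated tissues (63.4% of genes tested) and 2 nuclear members in the tissue difference (1.92%). Library quality weights put Cox6a1 at 0.025.

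In marrow, the muscle marker share as a covariate gave 17 nuclear and 7 MT-encoded calls, medians of -0.91 and 1.75 and a gap of 2.66. This share did not overlap between the marrow groups, so the covariate and the treatment cannot be told apart. The cause was not tested. Without NDEA 3 and 4, Mt-nd5 (-0.15), Mt-co3 (-0.14), Mt-nd2 (-0.041), Mt-atp8 (-0.43) and the chromosome 2 Cox6b1 (0.13) turned sign; in the tissue difference 0 nuclear members were called and the gap of medians was -0.20. Without control 3 as well, 5 nuclear members were called in marrow and 1 MT-encoded member in the tissue difference, with Mt-nd5 at -0.027, Mt-co3 at -0.022 and Mt-atp8 at -0.31.

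Leaving out single libraries gave 2 to 5 nuclear and 1 to 4 MT-encoded calls in liver, beside 4.34 to 5.97% of genes tested. In marrow it gave 0 to 13 and 0 to 1 (0 to 3.29% of genes), and in the tissue difference 0 to 12 and 0 to 3 (0.874 to 4.35%). Both highest values for marrow and for the tissue difference, and the highest shares of genes, came without marrow control 3. Between untreated tissues 6 to 12 MT-encoded members were called, beside 61.1 to 65% of genes. Signs turned within the ranges of Mt-co2 in liver (-0.0034 to 0.14), of Cox5a (-0.082 to 0.22), Sdhd (-0.028 to 0.19) and Mt-atp8 (-0.066 to 0.56) in marrow, of Cox6a1 (-0.12 to 0.077) and Mt-co2 (-0.022 to 0.52) between untreated tissues, and of Mt-nd6 (-0.71 to 0.11) in the tissue difference.

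Same-numbered libraries did not deviate together (correlations -0.038 to 0.052). The labels do not say whether the numbers pair samples. For liver against marrow these correlations cannot decide it, because tissues of one rat need not deviate together. Within a tissue, the replicate block pairs NDEA and control samples, which come from different rats, by number alone. The labels give no basis for that pairing. With the replicate block, 10 nuclear members were called in marrow, beside 2.72% of genes, and 0 in the tissue difference, where Atp5if1 had 1.93 (adjusted p = 0.0520 in limma voom). Of the summary values under alternatives, 376 were labelled as close to the reported value and 33 as moved. For medians the label allowed any shift smaller than the spread between libraries of a group, which was wide in marrow. The marrow MT-encoded median of 0.12 without NDEA 3 and 4 was thus labelled close to 0.51. Counts of calls that stayed at 0 were also labelled close. The label is therefore a loose measure of stability. Depth limits members with few marrow reads, such as Ndufb6 and Ndufc1.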

Other observations

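All chromosome MT records together, including those that are not members, held 20.9, 21.2, 20.1 and 22.4% of counts in liver NDEA, against 16.2, 20.6, 17.4 and 17.9% in liver control, and control 2 lay within the NDEA range. In marrow they held 11.3, 8.37, 15.2 and 15.8% in NDEA, against 6.41, 8.65, 13.0 and 7.24% in control, with overlap.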
